A study of Mus musculus with 13 samples.

Results

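Cells that divide switch on a set of genes for the machinery of mitosis, and 37 such genes were followed here in fibroblasts of mouse lung. The genes were taken by symbol, as genes of the G2/M transition, the spindle, the kinetochore and cytokinesis. The rule names no measured value, but the set was chosen with earlier results of these data known. Each matched an entry of the deposited table, so the set is 37 of its 43346 genes. It was read in 13 RNA-seq libraries of 4 groups.

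The series is described as RNA-seq of fibroblasts carrying a Col1a1-GFP reporter, a green fluorescent protein placed under a collagen promoter. The sham group (n = 2), the group at day 14 after bleomycin (n = 3) and the group at day 30 after bleomycin (n = 5) are labelled as lung of Col1a1-GFP mice aged 8 weeks. For the group at day 14 after pneumonectomy (n = 3), the surgical removal of part of the lung, the labels give primary sorted fibroblasts of the lung and state neither strain nor age, so any difference in preparation cannot be told apart from the surgery. The labels give no sort gate, no day for the sham group, and no statement that the libraries came from separate mice, so p-values measure the spread between these samples only. A reporter driven by a collagen promoter marks cells by how they use that promoter, and RNA of any other cell that was collected is read with it.

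As background, the kinase Cdk1 bound to cyclin A or B drives entry into mitosis, kinetochores and the spindle checkpoint hold chromosomes until all are attached, and the anaphase-promoting complex then destroys cyclin B and releases the cell into division. Transcription of these genes is held down in resting cells by repressor complexes that contain the MuvB core, which binds a promoter element called CHR. In G2 the same core works with B-MYB and FoxM1 to activate them, often with the factor NF-Y on CCAAT boxes. Lung fibroblasts are mostly at rest in the healthy adult. Bleomycin injures the lung and leads to fibroblast accumulation and scarring, whereas removal of a lung lobe is followed by growth of the remaining lung.

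Promoters are shown because the members rose together at day 14 after bleomycin, and the motifs searched are the 2 named above. RefSeq promoter windows on GRCm38.p6, from 250 bases before to 50 bases after the start site, were at hand for 31 of the 37 members, the exceptions being Aurkb, Ccna2, Foxm1, Incenp, Kif20a and Tpx2. The CHR letters TTTGAA, on either strand, were in 24 of the 31 windows (77.4%), against 20.2% of the windows of 27025 genes. Within 50 bases of the start site the share was 71% of members (22 of 31) against 5.72% of all genes. The CCAAT letters, on either strand, were in 24 of 31 (77.4%) against 41.1%, and both motifs were in 21 of 31 (67.7%) against 7.97%. Neither motif contains the other, and matches of the 2 can overlap only at their ends. Windows of Nuf2, Nusap1, Mad2l1 and Birc5 held neither, as did 47.7% of all windows. A match describes these letters only and is not a measured binding site.

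The windows below run 5′ to 3′ on the gene's own strand, from 150 bases before to 50 bases after the start site. Ccnb2 (chr9:70421505-70421704, minus strand), Cdc20 (chr4:118437294-118437493, minus), Plk1 (chr7:122159285-122159484, plus), Cdk1 (chr10:69352863-69353062, minus), Top2a (chr11:99024140-99024339, minus) and Racgap1 (chr15:99651607-99651806, minus) hold both motifs. Of these, Ccnb2, Plk1 and Cdk1 act in mitosis entry, and the other 3 have other roles. Mad2l1 (chr6:66535071-66535270, plus) holds neither and is shown for contrast. Capitals mark matches of the 2 motifs. A match on the other strand appears as its reverse complement.
Ccnb2: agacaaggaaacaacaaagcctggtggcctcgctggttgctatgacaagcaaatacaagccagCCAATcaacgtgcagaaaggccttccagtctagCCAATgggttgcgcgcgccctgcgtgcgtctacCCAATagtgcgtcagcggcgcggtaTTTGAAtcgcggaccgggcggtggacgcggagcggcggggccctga
Cdc20: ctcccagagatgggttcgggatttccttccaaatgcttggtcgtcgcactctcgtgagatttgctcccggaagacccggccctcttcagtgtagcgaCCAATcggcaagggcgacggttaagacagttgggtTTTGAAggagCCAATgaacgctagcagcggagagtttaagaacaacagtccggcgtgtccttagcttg
Plk1: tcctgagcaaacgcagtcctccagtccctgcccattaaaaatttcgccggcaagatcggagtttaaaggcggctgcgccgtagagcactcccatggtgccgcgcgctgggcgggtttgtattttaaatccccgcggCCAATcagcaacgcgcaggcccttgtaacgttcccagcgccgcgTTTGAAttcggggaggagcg
Cdk1: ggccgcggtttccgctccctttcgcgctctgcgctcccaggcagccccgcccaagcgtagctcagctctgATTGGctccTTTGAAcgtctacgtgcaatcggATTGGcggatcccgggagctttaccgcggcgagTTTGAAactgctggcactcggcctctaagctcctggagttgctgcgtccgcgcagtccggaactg
Top2a: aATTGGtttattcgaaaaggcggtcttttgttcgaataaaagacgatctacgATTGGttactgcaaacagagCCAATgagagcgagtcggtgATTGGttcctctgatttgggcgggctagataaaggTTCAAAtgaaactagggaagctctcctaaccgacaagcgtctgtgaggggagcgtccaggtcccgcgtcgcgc
Racgap1: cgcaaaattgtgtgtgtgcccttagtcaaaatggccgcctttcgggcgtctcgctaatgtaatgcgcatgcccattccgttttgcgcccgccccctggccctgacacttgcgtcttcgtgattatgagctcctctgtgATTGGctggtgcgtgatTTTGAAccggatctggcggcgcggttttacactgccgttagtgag
Mad2l1: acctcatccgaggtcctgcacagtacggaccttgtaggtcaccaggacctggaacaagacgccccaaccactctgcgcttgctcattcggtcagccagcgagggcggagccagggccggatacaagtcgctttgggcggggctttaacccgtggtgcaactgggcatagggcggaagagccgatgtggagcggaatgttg

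**Figure D1:**
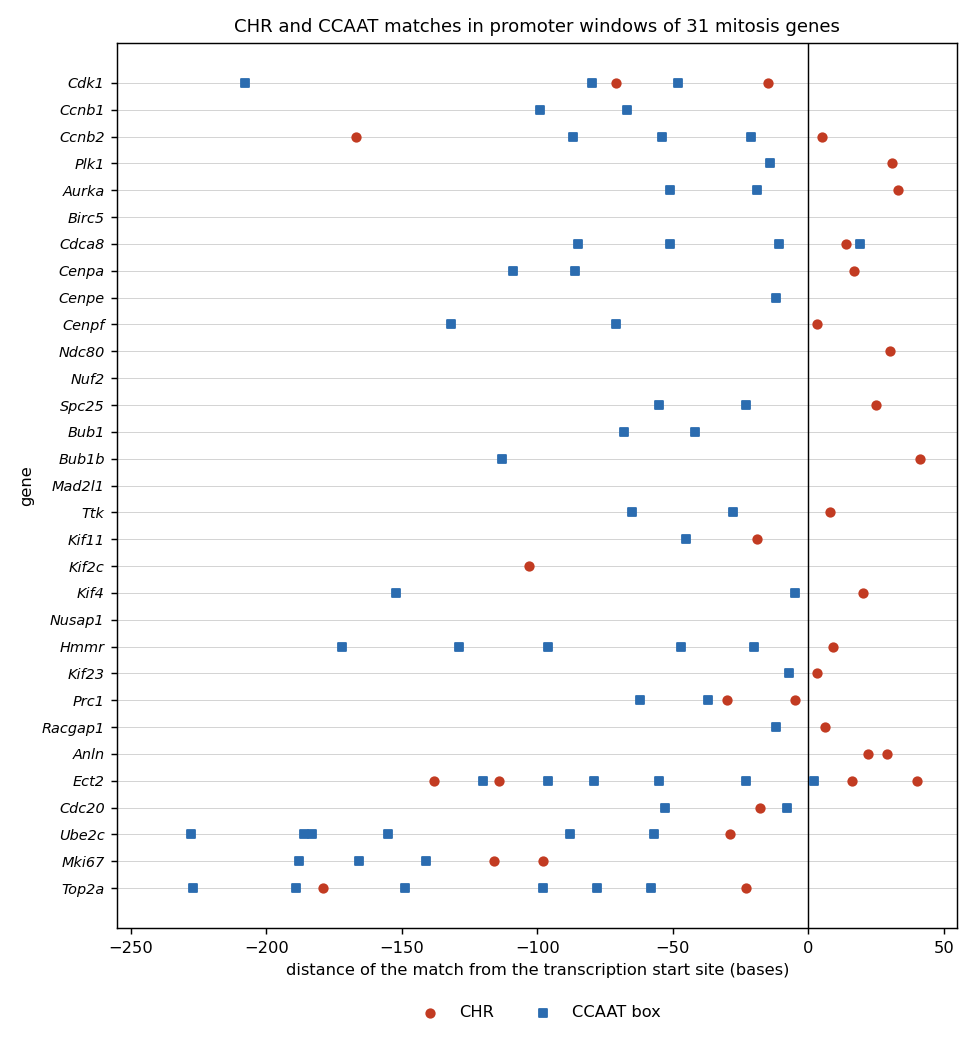
Positions of CHR (circles) and CCAAT (squares) matches in the promoter windows of 31 mitosis genes, 1 row per gene; the horizontal axis is the distance in bases of the match from the transcription start site (vertical line). CHR matches of 22 genes lie within 50 bases of the start site, and the rows of Nuf2, Nusap1, Mad2l1 and Birc5 are empty.

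Values are RPKM, read counts corrected for gene length and sequencing depth, and levels are compared between genes only on this length-corrected scale. The depth, read back from the steps between low values, ranged in M reads from 67.5 to 71.9 in sham, from 79.8 to 99.8 at day 14 after bleomycin, from 132.5 to 200.0 at day 30 and from 68.9 to 75.4 after pneumonectomy. Markers of other cells moved with the groups. The summed RPKM of 20 endothelial markers was 55.4 and 57.3 in sham, 452 to 834 at day 14 after bleomycin, 43.3 to 50.5 at day 30 and 46.6 to 87.8 after pneumonectomy, and that of 21 macrophage markers was 37.9 and 48.6, 191 to 629, 272 to 853 and 38.1 to 59.5. No endothelial or macrophage marker was at 0 in any library. The 14 epithelial markers summed to 1381 in day 30 replicate 3, against 8.98 to 19.3 in the other day 30 libraries, and to 51.4 to 514 after pneumonectomy. Col1a1, the collagen gene of the reporter, was at 437 to 1633 RPKM, but the 10 fibroblast markers did not move together. At day 14 after bleomycin 5 of them (Dcn, Lum, Thy1, Fbln1 and Pdgfra) were called lower than sham, all by over 2-fold, 2 (Col1a1 and Vim) were called higher, and the median log2 change was -0.68; these genes are named after their values were seen. The female-specific transcript Xist measured 19.9 to 29.2 RPKM in the day 30 libraries, where Y-linked genes were listed at 0, and 0.0222 or less elsewhere except in sham replicate 1. That library held both Xist (15.9 RPKM) and the Y-linked Ddx3y (2.14 RPKM), so that day 30 differs from the other groups in markers of sex too, and the 2 cannot be told apart.

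The mitosis genes were low in sham fibroblasts, high at day 14 after bleomycin, and much nearer to sham than to day 14, though above sham in sum, at day 30 and after pneumonectomy. The 37 genes summed to 6.97 and 8.04 RPKM in the sham libraries, to 141, 111 and 118 at day 14 after bleomycin, to 12.3, 12.8, 15.3, 15.9 and 19.7 at day 30 and to 10.2, 9.93 and 10.2 after pneumonectomy. The 3 day 14 bleomycin libraries lay far above every other library, and both sham libraries lay below all others. In reads, the sums were 1834 and 2293 in sham, 44300 to 49006 at day 14, 6509 to 12536 at day 30 and 2964 to 3263 after pneumonectomy. In these bulk samples, more cells in mitosis and more mitotic RNA per cell cannot be told apart.

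Ratios of mean RPKM describe all 37 genes. Day 14 bleomycin stood above sham by 5.93 times (Kif20a) to 73.1 times (Bub1), with a median of 21.9 and 34 genes above 10. Day 30 stood at 1.04 times (Ube2c) to 6.99 times (Bub1) the sham level, with a median of 2.26 and 22 genes above 2. Pneumonectomy stood at 0.797 times (Mad2l1) to 2.91 times (Mki67), with a median of 1.56 and 32 genes above 1. The Bub1 ratios rest on 12 sham reads in both libraries together (exact Poisson 95% interval 6.20 to 21.0), and no member had fewer. Such intervals cover counting error only, since copies made by PCR are not separate molecules.

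**Figure D2:**
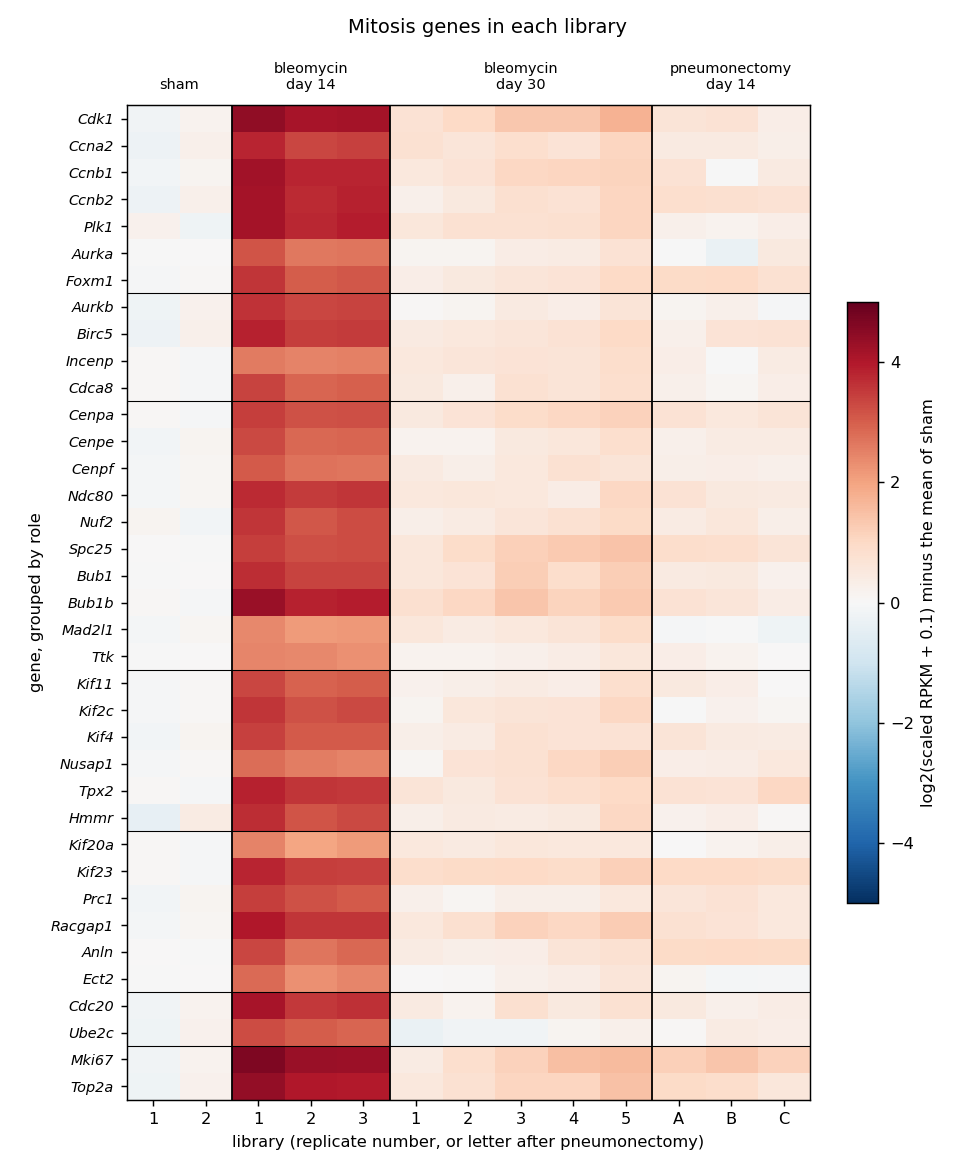
Level of each of the 37 mitosis genes (rows, grouped by role) in each of the 13 libraries (columns), as log2(scaled RPKM + 0.1) minus the mean of sham; red is higher and blue lower. The 3 day 14 bleomycin columns are red in every row, and the day 30 and pneumonectomy columns are pale.

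Tests used limma on log2(RPKM / a scaling factor of the library + 0.1), fitted over all genes with Benjamini-Hochberg adjustment, and a gene was called at an adjusted p under 0.05. Log2 changes below are on that scale, which understates the change of low genes, and their errors are standard errors of the fit. The factors were 0.81 to 0.85 after pneumonectomy and 0.96 and 0.97 in sham. RPKM of single libraries is printed before scaling, and overlap of groups is read on it. There 49.6% of the 12938 genes tested lay below both sham libraries in all 3 pneumonectomy libraries. Of the 37 genes, 35 had 1 RPKM or more in at least 2 libraries and were tested; Cenpf and Ttk did not, and 31 of the 35 passed only through the day 14 bleomycin libraries, so that their high level there was built into the filter. With no filter, all 37 were called higher at day 14 after bleomycin than in sham, against 17.2% of 31266 genes. The filtered fit called 35 of 35 higher, against 33.4% of 12938 genes, and 0 lower, against 29.9%. All 35 exceeded 2-fold, against 11.9%. The changes ran from 2.19 ± 0.13 (Kif20a) to 4.41 ± 0.30 (Mki67), with a median of 3.35 against 0.02 over all genes tested. The 3 day 14 bleomycin libraries lay above both sham libraries for all 35, against 53.9% of genes.

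At day 30 after bleomycin, 21 of the 35 were called higher than sham, 0 lower and 14 neither, against 14.8% of all genes called higher and 14.1% lower; 27 had an unadjusted p under 0.05, none of them lower. With no filter, 21 of the 37 were called higher, against 6.52% of genes. Of the 21 in the filtered fit, 4 exceeded 2-fold (Cdk1, Bub1b, Mki67 and Spc25), against 4.7% of genes. The changes ran from -0.05 ± 0.20 (Ube2c) to 1.23 ± 0.25 (Cdk1), with a median of 0.63 against 0.00. The count was 9 without sham replicate 1, 12 without sham replicate 2 and 9 with a pseudocount of 1, and 5 of the 21 (Bub1b, Cenpa, Incenp, Kif23 and Spc25) were called whichever single library was left out. Shares of all genes in these fits are not given here, so the counts do not show whether the members alone lost calls.

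After pneumonectomy, 11 of the 35 were called higher than sham, 0 lower and 24 neither, and 15 had an unadjusted p under 0.05, none of them lower. The background was 22.6% of genes called higher and 19.3% lower. With no filter, 10 of the 37 were called higher, against 10.2% of genes, and with a filter of 0.3 RPKM 13 of the 37, against 19.5%. Only Mki67 exceeded 2-fold, against 7.64% of genes. The changes ran from -0.09 ± 0.15 (Mad2l1) to 1.24 ± 0.30 (Mki67), with a median of 0.42 against 0.01. The count was 5 without sham replicate 1, 7 without pneumonectomy library A, 6 with a pseudocount of 1 and 7 without scaling, and Anln, Foxm1, Kif23 and Tpx2 were called whichever library was left out. Shares of all genes in these fits are not given here, so the counts do not show whether the members alone lost calls. The comparisons with sham share the 2 sham libraries.

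Set against each other, the 2 treatments at day 14 differed for every member. Without a filter all 37 were higher after bleomycin than after pneumonectomy, against 19.4% of genes; with it, 35 of 35, against 36.2%. Changes ran from 1.99 ± 0.17 (Anln) to 3.69 ± 0.17 (Plk1), with a median of 2.87 against 0.02. From day 14 to day 30 after bleomycin all 37 fell in the unfiltered fit, against 15.2% of genes called lower, and 35 of 35 in the filtered fit, against 30.7%. Changes ran from -3.32 ± 0.24 (Mki67) to -1.60 ± 0.12 (Mad2l1), with a median of -2.73 against -0.01. The day 30 mean was 6.44% (Aurkb) to 28.8% (Mad2l1) of the day 14 mean over all 37, with a median of 9.78%.

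**Figure D3:**
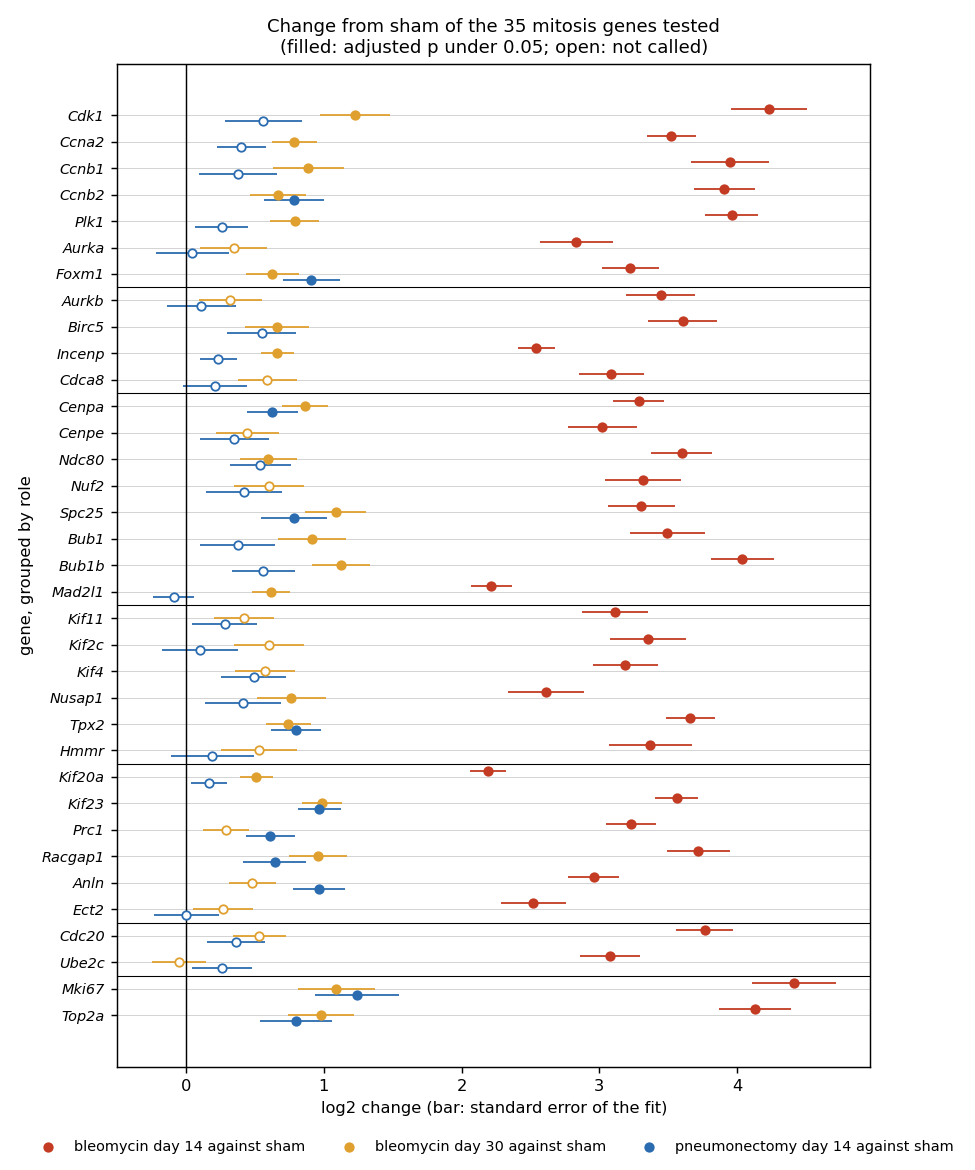
Log2 change from sham of the 35 mitosis genes tested (rows, grouped by role) at day 14 and day 30 after bleomycin and day 14 after pneumonectomy; points are estimates, bars standard errors, and filled points have an adjusted p under 0.05. The day 14 bleomycin points lie between 2.19 and 4.41, apart from the other 2 comparisons.

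The genes that start mitosis changed from 2.83 ± 0.27 (Aurka) to 4.23 ± 0.28 (Cdk1) at day 14 after bleomycin. Cdk1, the kinase that drives entry, was at 0.0516 and 0.0928 RPKM in sham, 3.97, 3.35 and 3.53 at day 14 after bleomycin, 0.193, 0.255, 0.349, 0.358 and 0.521 at day 30 and 0.140, 0.150 and 0.101 after pneumonectomy. All day 30 and pneumonectomy values lay above sham and far under day 14 bleomycin. The change from sham was 4.23 ± 0.28 at day 14 (adjusted p = 2.58e-07), 1.23 ± 0.25 at day 30 (adjusted p = 0.00484, not called without sham replicate 1) and 0.56 ± 0.28 after pneumonectomy (adjusted p = 0.122). Ccnb1 encodes cyclin B1, a partner of Cdk1, and was at 0.0281 and 0.0528 RPKM in sham, 2.78, 2.16 and 2.22 at day 14, 0.109, 0.133, 0.198, 0.210 and 0.218 at day 30 and 0.108, 0.0315 and 0.0792 after pneumonectomy. The pneumonectomy libraries overlapped sham, since library B lay between the 2 sham values. Its day 14 change was 3.94 ± 0.28 (adjusted p = 4.67e-07), and the day 30 change of 0.89 ± 0.26 (adjusted p = 0.0249) was not called without either sham library or without day 30 replicate 4 or 5.

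Ccnb2, cyclin B2, started higher, at 0.327 and 0.496 RPKM in sham, and reached 10.0, 7.72 and 8.71 at day 14 after bleomycin, with 0.534, 0.655, 0.844, 0.805 and 1.05 at day 30 and 0.677, 0.654 and 0.640 after pneumonectomy. Its pneumonectomy change of 0.79 ± 0.22 was called (adjusted p = 0.0142), though not without sham replicate 1. Ccna2, cyclin A2, was at 0.384 and 0.590 RPKM in sham, 9.06, 6.81 and 7.37 at day 14, 0.948, 0.834, 0.991, 0.907 and 1.22 at day 30 and 0.583, 0.582 and 0.542 after pneumonectomy. Before scaling, all 3 pneumonectomy values lay between the 2 sham libraries. On the scale of the fit the Ccna2 change after pneumonectomy was 0.40 ± 0.18 (adjusted p = 0.0893). Plk1, a kinase of centrosome maturation and later mitosis, was at 0.181 and 0.114 RPKM in sham, 4.85, 3.82 and 4.40 at day 14, 0.277, 0.336, 0.339, 0.357 and 0.455 at day 30 and 0.164, 0.151 and 0.184 after pneumonectomy. Its difference of 3.69 ± 0.17 was the widest between the 2 treatments (adjusted p = 3.13e-08), and its change after pneumonectomy was 0.26 ± 0.19 (adjusted p = 0.292).

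Aurka, the centrosomal Aurora kinase, was at 0.176 and 0.181 RPKM in sham, 2.68, 1.95 and 2.05 at day 14, 0.221, 0.217, 0.283, 0.289 and 0.391 at day 30 and 0.148, 0.105 and 0.252 after pneumonectomy. The pneumonectomy libraries lay on both sides of sham, with a change of 0.05 ± 0.27 (adjusted p = 0.899) whose sign turns without scaling, with upper-quartile scaling and without library C. Foxm1, the transcription factor of the set, was at 0.229 and 0.258 RPKM in sham, 4.48, 3.16 and 3.42 at day 14, 0.364, 0.415, 0.451, 0.484 and 0.656 at day 30 and 0.477, 0.495 and 0.425 after pneumonectomy. It was among the members called in each comparison with sham, at 3.22 ± 0.21, 0.63 ± 0.19 and 0.91 ± 0.21 (adjusted p = 2.3e-07, 0.0282 and 0.00467), and the day 30 call was lost without either sham library or day 30 replicate 4. Of the 7 genes of this role, Ccnb2 and Foxm1 were called after pneumonectomy and 6, not Aurka, at day 30, where 22.6% and 14.8% of all genes were called higher. With no filter 2 and 5 of the 7 were called, against 10.2% and 6.52% of genes. Differences between roles were not tested.

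The chromosomal passenger complex corrects wrong attachments of chromosomes and later marks the cleavage plane. Aurkb, its kinase, was at 0.0553 and 0.113 RPKM in sham, 2.36, 2.06 and 2.14 at day 14 after bleomycin, 0.0948, 0.109, 0.156, 0.137 and 0.207 at day 30 and 0.0862, 0.0991 and 0.0641 after pneumonectomy. Before scaling, its pneumonectomy values lay within the sham range, and its change there on the scale of the fit was 0.11 ± 0.25 (adjusted p = 0.741). Its day 14 change was 3.44 ± 0.25 (adjusted p = 4.95e-07), and at day 30 it had the smallest remaining share of its day 14 level. Birc5 encodes survivin, a subunit that brings the complex to centromeres, and was at 0.0522 and 0.110 RPKM in sham, 2.80, 2.19 and 2.28 at day 14, 0.157, 0.166, 0.187, 0.207 and 0.283 at day 30 and 0.0943, 0.156 and 0.171 after pneumonectomy. Its change at day 30 was 0.66 ± 0.23 (adjusted p = 0.0488), a call that held without day 30 replicate 1 and was lost without any other single library.

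Incenp, the scaffold of the complex, had one of the higher sham levels of the set, 0.686 and 0.622 RPKM, with 5.11, 4.94 and 5.12 at day 14, 1.08, 1.11, 1.18, 1.17 and 1.43 at day 30 and 0.719, 0.536 and 0.794 after pneumonectomy. Its changes were 2.54 ± 0.13 at day 14 and 0.67 ± 0.12 at day 30 (adjusted p = 9.45e-08 and 0.00259). Cdca8, which encodes borealin, the remaining subunit, was at 0.10 and 0.0833 RPKM in sham, 2.11, 1.58 and 1.69 at day 14, 0.178, 0.137, 0.238, 0.211 and 0.270 at day 30 and 0.106, 0.0871 and 0.121 after pneumonectomy. Its day 30 change of 0.59 ± 0.21 was not called (adjusted p = 0.0573). None of the 4 subunits was called after pneumonectomy, and 1, Birc5, had an unadjusted p under 0.05 there.

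Kinetochore proteins tie chromosomes to microtubules. Cenpa, the centromeric histone, was at 0.349 and 0.317 RPKM in sham, 5.23, 4.50 and 4.79 at day 14 after bleomycin, 0.546, 0.645, 0.776, 0.863 and 0.966 at day 30 and 0.524, 0.435 and 0.505 after pneumonectomy, and no 2 of the 4 groups overlapped before scaling. It was called in each comparison with sham, at 3.28 ± 0.18, 0.87 ± 0.17 and 0.63 ± 0.18 (adjusted p = 1.18e-07, 0.00331 and 0.0162); the last call was lost without sham replicate 2 or library A. Cenpe, a kinetochore motor, was at 0.0701 and 0.103 RPKM in sham, 1.92, 1.48 and 1.55 at day 14, 0.119, 0.118, 0.173, 0.188 and 0.253 at day 30 and 0.103, 0.121 and 0.128 after pneumonectomy. It was called at day 14 (3.02 ± 0.25, adjusted p = 1.24e-06) but not at day 30 (0.45 ± 0.23, adjusted p = 0.163).

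Ndc80, Nuf2 and Spc25 are subunits of the Ndc80 complex, the main microtubule coupler. Ndc80 was at 0.0673 and 0.0947 RPKM in sham, 2.61, 2.25 and 2.42 at day 14, 0.175, 0.175, 0.167, 0.146 and 0.292 at day 30 and 0.164, 0.127 and 0.125 after pneumonectomy. Nuf2 was at 0.0397 and 0.0175 RPKM in sham, 1.56, 1.18 and 1.34 at day 14, 0.0595, 0.0765, 0.0984, 0.124 and 0.163 at day 30 and 0.0569, 0.0753 and 0.0504 after pneumonectomy. Spc25 was at 0.0836 and 0.0829 RPKM in sham, 2.13, 1.87 and 1.97 at day 14, 0.185, 0.265, 0.337, 0.382 and 0.430 at day 30 and 0.197, 0.187 and 0.164 after pneumonectomy. All 3 subunits thus showed day 14 bleomycin libraries well above every other library. Their day 14 changes were 3.60 ± 0.22, 3.31 ± 0.28 and 3.30 ± 0.24. At day 30 Spc25 kept 1.09 ± 0.22 (adjusted p = 0.00438), Ndc80 was at 0.60 ± 0.20 (adjusted p = 0.045, called in only 1 of 7 fits that leave out a library) and Nuf2 at 0.60 ± 0.25 (adjusted p = 0.093).

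The spindle checkpoint kinase Bub1 was at 0.0170 and 0.0224 RPKM in sham, 1.62, 1.33 and 1.36 at day 14, 0.0832, 0.0987, 0.186, 0.126 and 0.193 at day 30 and 0.0522, 0.0549 and 0.0333 after pneumonectomy. These values rest on 5 and 7 reads in sham, 518 to 579 at day 14, 48 to 139 at day 30 and 10 to 18 after pneumonectomy. Its day 14 change was 3.49 ± 0.27 (adjusted p = 7.84e-07), and that at day 30 was 0.92 ± 0.25 (adjusted p = 0.0186, not called without either sham library). Bub1b, which encodes the checkpoint protein BubR1, was at 0.0624 and 0.0488 RPKM in sham, 3.33, 2.51 and 2.73 at day 14, 0.180, 0.231, 0.322, 0.256 and 0.308 at day 30 and 0.131, 0.112 and 0.0883 after pneumonectomy. Its change of 4.04 ± 0.23 at day 14 and 1.13 ± 0.21 at day 30 (adjusted p = 1.26e-07 and 0.00265) stood among the largest of the set in both comparisons.

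Mad2l1 encodes Mad2, the checkpoint's direct inhibitor of the anaphase-promoting complex, and was at 0.591 and 0.700 RPKM in sham, 4.32, 3.70 and 3.89 at day 14, 1.09, 0.944, 1.05, 1.17 and 1.46 at day 30 and 0.528, 0.536 and 0.481 after pneumonectomy. It was the 1 tested member whose RPKM before scaling lay below both sham libraries in all 3 pneumonectomy libraries, as 49.6% of all genes did. Its change on the scale of the fit, -0.09 ± 0.15, was not called (adjusted p = 0.66) and turned sign without sham replicate 2. Its change was 2.22 ± 0.15 at day 14 and 0.62 ± 0.14 at day 30 (adjusted p = 2.92e-07 and 0.00656). Cenpf and Ttk, a kinetochore protein and a checkpoint kinase, stayed under the filter. Cenpf was at 0.0173 and 0.0351 RPKM in sham, 1.07, 0.856 and 0.841 at day 14, 0.0748, 0.0573, 0.0870, 0.123 and 0.108 at day 30 and 0.0468, 0.0490 and 0.0452 after pneumonectomy, and Ttk at 0.0452 and 0.0509, 0.777, 0.803 and 0.735, 0.0721, 0.0711, 0.0830, 0.101 and 0.128 and 0.0707, 0.0566 and 0.0443. In the fit with no filter their day 14 changes were 2.83 ± 0.17 and 2.37 ± 0.15 (adjusted p = 7.19e-07 and 8.26e-07), and at day 30 Cenpf was called (0.54 ± 0.16, adjusted p = 0.0462) whereas Ttk was not (0.31 ± 0.14, adjusted p = 0.173).

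Spindle motors and microtubule proteins build and focus the spindle. Kif11, the motor that pushes spindle poles apart, was at 0.108 and 0.124 RPKM in sham, 2.37, 1.82 and 2.02 at day 14 after bleomycin, 0.163, 0.176, 0.202, 0.187 and 0.312 at day 30 and 0.172, 0.143 and 0.105 after pneumonectomy. Day 30 replicate 5 stood apart from the other 4 there. Kif11 was called at day 14 (3.11 ± 0.24, adjusted p = 6.53e-07) and in neither other comparison with sham (0.42 ± 0.22 and 0.28 ± 0.24, adjusted p = 0.165 and 0.355). Kif2c, a depolymerase that corrects attachments, was at 0.0373 and 0.0510 RPKM in sham, 1.79, 1.41 and 1.58 at day 14, 0.0623, 0.118, 0.134, 0.139 and 0.210 at day 30 and 0.0368, 0.0578 and 0.0466 after pneumonectomy. Pneumonectomy library A lay just under both sham libraries before scaling, and the Kif2c ratio of day 14 bleomycin to pneumonectomy, 33.9, was the highest of the 37. Kif4, a chromosome-bound motor, was at 0.0483 and 0.0757 RPKM in sham, 1.83, 1.48 and 1.49 at day 14, 0.104, 0.122, 0.185, 0.173 and 0.180 at day 30 and 0.126, 0.0987 and 0.10 after pneumonectomy. Kif4 lies on the X chromosome and, in GENCODE M21, shares 15.1% of its exon bases with Pdzd11 on the other strand.

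Tpx2, a protein that seeds spindle microtubules and activates Aurora A, was at 0.206 and 0.181 RPKM in sham, 4.68, 4.02 and 4.00 at day 14, 0.391, 0.333, 0.410, 0.462 and 0.538 at day 30 and 0.320, 0.306 and 0.435 after pneumonectomy. It was the only member of this role called after pneumonectomy (0.80 ± 0.18, adjusted p = 0.00431). Nusap1, a spindle-associated protein, was at 0.157 and 0.175 RPKM in sham, 1.98, 1.75 and 1.65 at day 14, 0.203, 0.351, 0.374, 0.472 and 0.583 at day 30 and 0.198, 0.206 and 0.250 after pneumonectomy. Its day 30 call (0.77 ± 0.25, adjusted p = 0.0403) held in 1 of the 7 fits that leave out a library. Hmmr, a spindle protein also known as a hyaluronan receptor, was at 0.0327 and 0.128 RPKM in sham, 2.37, 1.68 and 1.91 at day 14, 0.121, 0.146, 0.141, 0.154 and 0.279 at day 30 and 0.0862, 0.0977 and 0.0695 after pneumonectomy. As a ratio, the 2 sham libraries differed most for this gene among the members, and only day 14 was called (3.37 ± 0.30, adjusted p = 2.11e-06).

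Among the cytokinesis genes, 4 of 6 were called higher after pneumonectomy, against 22.6% of all genes. With no filter 3 of 6 were, against 10.2% of genes. Kif23 and Racgap1 encode the 2 parts of centralspindlin, which bundles the midzone and recruits Ect2. Kif23 was at 0.143 and 0.126 RPKM in sham, 3.56, 2.92 and 2.88 at day 14 after bleomycin, 0.357, 0.372, 0.394, 0.375 and 0.473 at day 30 and 0.305, 0.310 and 0.297 after pneumonectomy. All libraries of the 3 treated groups lay above sham, and the changes were 3.56 ± 0.16, 0.99 ± 0.14 and 0.97 ± 0.16 (adjusted p = 6.74e-08, 0.000723 and 0.000562). Racgap1 was at 0.0983 and 0.122 RPKM in sham, 3.66, 2.79 and 2.91 at day 14, 0.220, 0.284, 0.386, 0.360 and 0.442 at day 30 and 0.213, 0.195 and 0.174 after pneumonectomy. Its pneumonectomy change of 0.65 ± 0.23 (adjusted p = 0.0395) was called in 1 of the 5 fits that leave out a library, and that at day 30 was 0.96 ± 0.21 (adjusted p = 0.0064, not called without sham replicate 1).

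Anln, which encodes anillin, a scaffold of the contractile ring, was at 0.568 and 0.552 RPKM in sham, 7.49, 4.87 and 5.69 at day 14, 0.826, 0.755, 0.774, 1.02 and 1.14 at day 30 and 1.00, 1.03 and 1.02 after pneumonectomy. Before scaling, the pneumonectomy libraries lay within the day 30 range. Anln was called after pneumonectomy (0.97 ± 0.19, adjusted p = 0.00182) but not at day 30 (0.48 ± 0.17, adjusted p = 0.0536). Prc1, a midzone bundler, was at 0.144 and 0.196 RPKM in sham, 3.19, 2.77 and 2.58 at day 14, 0.236, 0.205, 0.243, 0.250 and 0.315 at day 30 and 0.257, 0.286 and 0.254 after pneumonectomy. It too was called after pneumonectomy (0.61 ± 0.18, adjusted p = 0.0173, lost without sham replicate 1 or library B) and not at day 30 (0.29 ± 0.16, adjusted p = 0.205). The difference between day 30 and pneumonectomy was not tested for either gene. Ect2, the exchange factor that starts ring assembly, was at 0.145 and 0.147 RPKM in sham, 1.85, 1.29 and 1.51 at day 14, 0.164, 0.168, 0.209, 0.240 and 0.309 at day 30 and 0.147, 0.112 and 0.120 after pneumonectomy, and was called only at day 14 (2.52 ± 0.24, adjusted p = 3.08e-06).

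Kif20a, a midzone motor, had the highest sham level of the set at 0.901 and 0.842 RPKM, with 6.07, 4.45 and 4.98 at day 14, 1.41, 1.31, 1.42, 1.40 and 1.45 at day 30 and 0.750, 0.839 and 0.971 after pneumonectomy. It also had the smallest day 14 change, 2.19 ± 0.13 (adjusted p = 1.53e-07), and a narrow day 30 range with a change of 0.51 ± 0.12 (adjusted p = 0.00902, lost without sham replicate 2). In GENCODE M21 it shares 29.3% of its exon bases with Cdc23, a gene on the other strand, the largest share among the members. Cdc23 was at 2.41 RPKM in sham and changed by 0.07 ± 0.09 at day 14. Reads of the 2 genes cannot be told apart where strand is not kept, and the part of such reads in the Kif20a values was not tested. Of the 37 members, 9 share exon bases with a gene on the other strand and 26 with no other gene.

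Cdc20 activates the anaphase-promoting complex, and was at 0.333 and 0.447 RPKM in sham, 9.40, 6.51 and 7.29 at day 14 after bleomycin, 0.606, 0.481, 0.806, 0.634 and 0.793 at day 30 and 0.494, 0.405 and 0.458 after pneumonectomy. Its day 14 change was 3.76 ± 0.21 (adjusted p = 1.2e-07), and neither day 30 (0.53 ± 0.19, adjusted p = 0.0569) nor pneumonectomy (0.37 ± 0.21, adjusted p = 0.179) was called. Ube2c, the ubiquitin-conjugating enzyme of that complex, was at 0.216 and 0.326 RPKM in sham, 3.89, 3.44 and 3.25 at day 14, 0.212, 0.240, 0.245, 0.335 and 0.381 at day 30 and 0.242, 0.321 and 0.318 after pneumonectomy. Day 30 and sham overlapped, with a change of -0.05 ± 0.20 (adjusted p = 0.875), the lowest of the set there, whose sign turns without scaling, without sham replicate 2 and without day 30 replicate 1. The core subunits of the same complex moved little. Of 13 genes with the G1 activator Fzr1 among them, 2 were called higher and 1 lower at day 14 after bleomycin. Of all genes 33.4% were called higher and 29.9% lower there. Fzr1 was at 0.52 ± 0.07, and the median of the 13 was 0.01.

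Mki67 and Top2a act on mitotic chromosomes, as a coat that keeps them apart and as the enzyme that untangles their DNA. Mki67 was at 0.0970 and 0.153 RPKM in sham, 6.20, 5.12 and 5.02 at day 14 after bleomycin, 0.211, 0.316, 0.422, 0.573 and 0.622 at day 30 and 0.344, 0.406 and 0.344 after pneumonectomy. All treated libraries lay above sham, and the changes were 4.41 ± 0.30, 1.09 ± 0.28 and 1.24 ± 0.30 (adjusted p = 3.55e-07, 0.0137 and 0.00703), of which the last 2 were not called without sham replicate 1. Top2a was at 0.123 and 0.204 RPKM in sham, 5.99, 4.82 and 4.84 at day 14, 0.296, 0.363, 0.484, 0.479 and 0.680 at day 30 and 0.343, 0.319 and 0.246 after pneumonectomy. Its changes were 4.12 ± 0.26, 0.98 ± 0.24 and 0.80 ± 0.26 (adjusted p = 2.14e-07, 0.0112 and 0.028); the last call was lost without sham replicate 1, library A or library B, and the day 30 call without sham replicate 1.

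**Figure D4:**
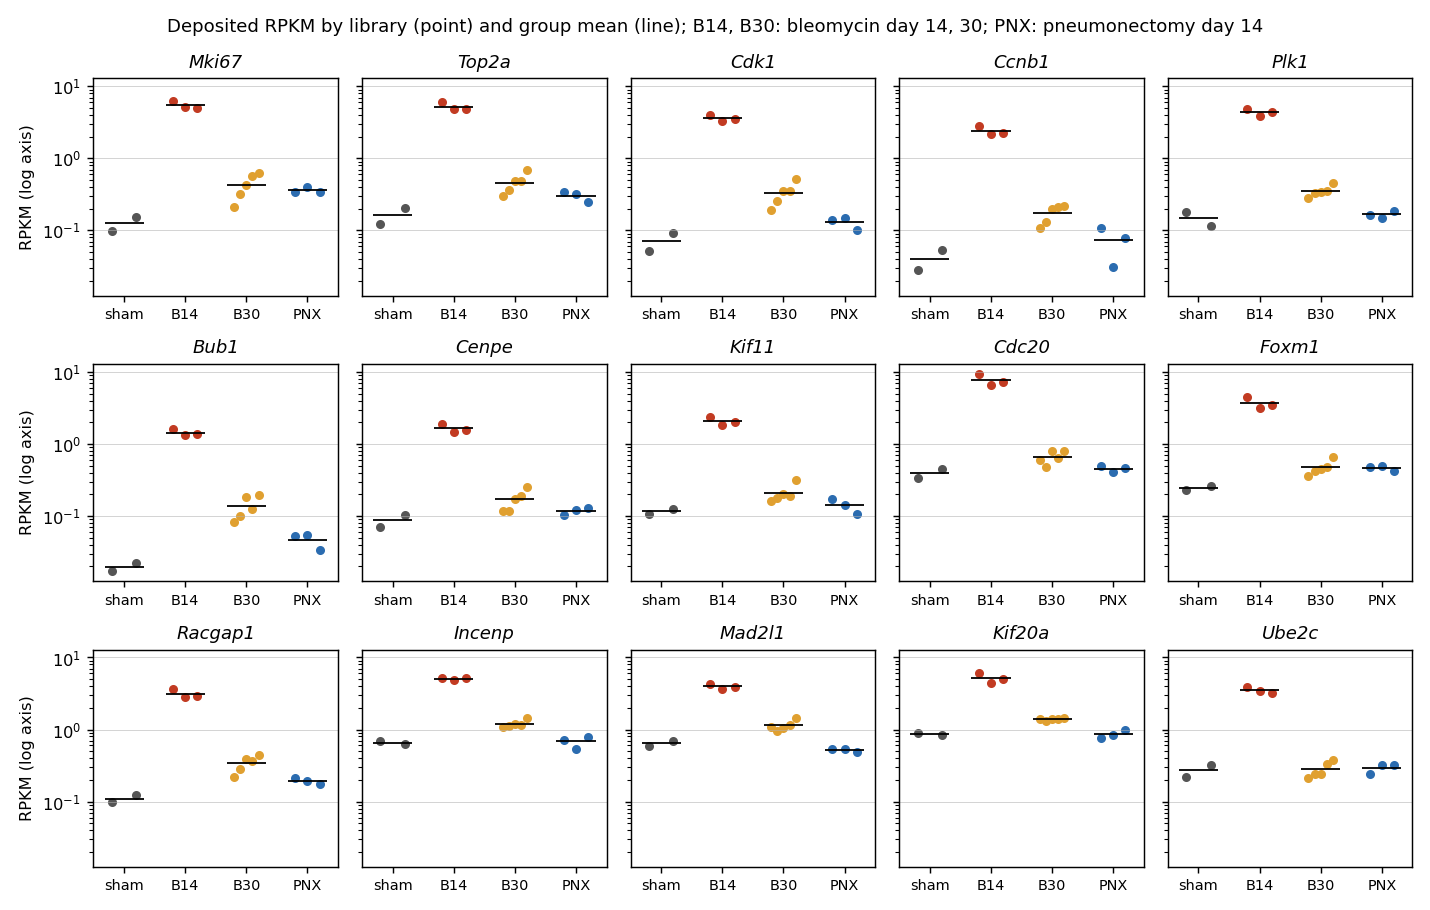
RPKM (log axis) of 15 mitosis genes in each library (points) with the group mean (line), for sham, bleomycin day 14 (B14), bleomycin day 30 (B30) and pneumonectomy day 14 (PNX). The B14 points lie above all other points in each panel. In these values before scaling, the PNX points of Ube2c lie within sham and those of Mad2l1 under it.

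Within the day 14 and day 30 bleomycin groups, most members ranked the libraries alike in RPKM before scaling. The share of all genes with the same ranking was not computed. Day 14 replicate 1 held the highest RPKM of its group for 35 of 37 genes, and day 30 replicate 5 for 33 of 37, whereas day 30 replicate 1 held the lowest for 24. Sham replicate 1 was the lower sham library for 26 of 37, and the pneumonectomy libraries shared the top place (14, 14 and 9 genes). The mean log2 level of the 37 genes relative to sham, on the scale of the fit, was 3.55, 3.18 and 3.21 in the day 14 libraries, 0.40, 0.49, 0.71, 0.73 and 0.97 at day 30, and 0.49, 0.46 and 0.42 after pneumonectomy. The median coefficient of variation was 20.6% in sham, 12.8% at day 14, 25.4% at day 30 and 14.3% after pneumonectomy.

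Markers of other cells followed this order in part. Day 14 replicate 1, highest in mitosis genes, had the lowest summed endothelial markers of its group (452 RPKM, against 834 and 776 in replicates 2 and 3) and the lowest macrophage markers (191, against 629 and 463). Across groups they did go together at day 14 in the filtered fit. There 19 of 20 endothelial, 18 of 20 macrophage, 5 of 6 granulocyte and 3 of 3 erythroid markers tested were called higher than sham, against 33.4% of all genes. With no filter these were 19 of 20, 19 of 21, 2 of 9 and 3 of 6, against 17.2% of genes. Of the tested markers, 5 endothelial, 3 macrophage and 1 erythroid passed the filter only through the day 14 bleomycin libraries, so that their high level was built in. The mean log2 level of the 10 fibroblast markers relative to sham was -1.06 to -1.22 in those libraries. Of 10 pericyte and smooth muscle markers, 5 were called lower and 1 higher there, against 29.9% and 33.4% of all genes. At day 30, replicate 1 was lowest in macrophage markers as in most mitosis genes (272 RPKM), but replicate 3, not replicate 5, was highest (853). With the day 14 group as replicate 1 alone, an alternative chosen after seeing the data, 35 of 35 tested mitosis genes were called higher than sham, against 25.1% of all genes. That single library is assumed to vary like the other groups, and since it is the highest of its group for most members, the count says nothing of those cells' part. From day 14 to day 30, 20 of 20 endothelial, 3 of 3 erythroid, 4 of 20 macrophage and 0 of 6 granulocyte markers tested were called lower, against 30.7% of all genes. With no filter these were 20 of 20, 4 of 6, 4 of 21 and 1 of 9, against 15.2% of genes. Compared with sham, day 30 had 17 of 20 macrophage, 5 of 6 granulocyte, 3 of 5 mesothelial and 3 of 20 endothelial markers higher, against 14.8% of all genes. After pneumonectomy 17 of 20 endothelial, 5 of 5 mesothelial, 6 of 10 pericyte and smooth muscle and 3 of 9 epithelial markers were higher, against 22.6% of all genes, with 0 macrophage markers higher and 3 lower. The part of these cells in the mitosis gene levels was not tested.

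**Figure D5:**
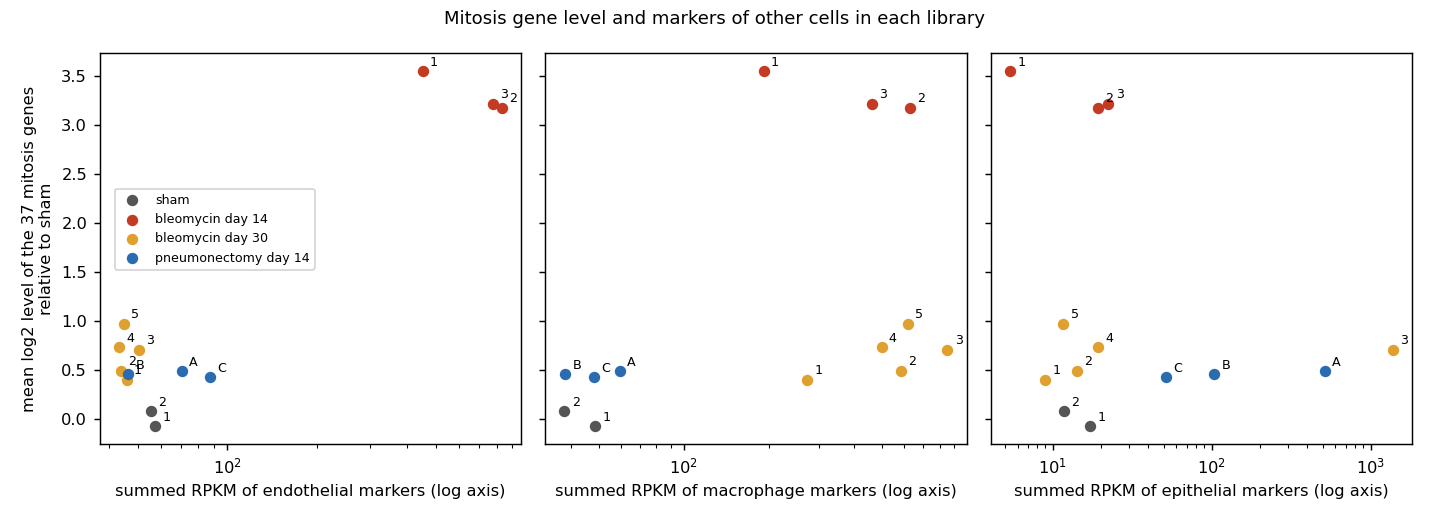
Mean log2 level of the 37 mitosis genes relative to sham (vertical axis) against the summed RPKM of endothelial, macrophage and epithelial markers (horizontal log axes), 1 point per library, marked with its replicate number or letter. Day 14 bleomycin replicate 1 has the highest mitosis level, 3.55, and the lowest endothelial sum of its group, 452 RPKM.

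The wider pathway was read from lists of other cell cycle genes. Of 74 other mitosis genes, 53 were tested, and at day 14 after bleomycin 47 were called higher, 3 lower and 3 neither, with a median of 2.05, against 33.4% of all genes called higher and 29.9% lower. Of the 53, 38 passed the filter only through the day 14 bleomycin libraries, so that their high level was built in there too. With no filter 68 of the 74 were called higher and 3 lower, against 17.2% of genes called higher. Ckap2, a spindle protein, was at 3.68 ± 0.19, Spc24, the partner of Spc25, at 3.78 ± 0.21 and Tacc3, a microtubule protein, at 2.57 ± 0.14. The 3 that were lower were Wee1 (-1.19 ± 0.26), the kinase that holds Cdk1 inactive, Cdc25b (-0.39 ± 0.12), a phosphatase that activates it, and Cenpc1 (-0.38 ± 0.10), a centromere protein, named after its values were seen. At day 30, 13 of the 53 were called higher and 3 lower than sham (14.8% and 14.1% of all genes), with Smc4, a condensin subunit, at 0.62 ± 0.12 and Wee1 at -1.23 ± 0.24. After pneumonectomy, 4 of the 53 were called higher and 8 lower, against 22.6% and 19.3% of all genes, with Ckap2 at 1.09 ± 0.19 and Bub3, a checkpoint protein, at -0.42 ± 0.07. With no filter 6 of the 74 were called higher and 8 lower after pneumonectomy, against 10.2% and 9.7% of genes.

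Most genes of DNA replication were higher at day 14 after bleomycin too. Of 31 tested, 29 were called higher and 0 lower, against 33.4% and 29.9% of all genes, with a median of 1.48. Among the 29 were the helicase subunits Mcm5 (2.81 ± 0.20) and Mcm6 (2.68 ± 0.19) and the nuclease Fen1 (1.92 ± 0.12). Of the 31, 16 passed the filter only through the day 14 bleomycin libraries. With no filter 36 of 40 were called higher, against 17.2% of genes. All 31 fell from day 14 to day 30, against 30.7% of genes. At day 30 the list had 1 gene higher than sham, the licensing factor Cdt1 (0.69 ± 0.18), and 1 lower, the replication clamp Pcna (-0.34 ± 0.11). Of all genes 14.8% were called higher and 14.1% lower there. After pneumonectomy 6 of the 31 were higher and 4 lower, against 22.6% and 19.3% of all genes, and the median was -0.03. With no filter 8 of 40 were called higher and 5 lower after pneumonectomy, against 10.2% and 9.7% of genes. In RPKM before scaling, 18 of the 31 lay below both sham libraries in all 3 libraries, against 49.6% of all genes. Among the 6 were Cdt1 at 1.25 ± 0.19 and Ccne1, cyclin E1, at 1.27 ± 0.22.

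Upstream regulators did not move as a block. Of 13 tested E2F, B-MYB and MuvB genes, 7 were called higher and 2 lower at day 14 after bleomycin, against 33.4% and 29.9% of all genes. With no filter 11 of 18 were called higher and 2 lower, against 17.2% and 18.3% of genes. E2f3, an activating E2F, was at 1.35 ± 0.12, Rbl2, which encodes the repressor p130 of resting cells, at -1.21 ± 0.06, and Rb1, the retinoblastoma gene, at 0.69 ± 0.11. After pneumonectomy E2f3 was at 1.22 ± 0.12, and it was the only 1 of the 13 called higher, while 3 were called lower, against 22.6% and 19.3% of all genes. With no filter 2 of 18 were called higher and 1 lower after pneumonectomy, against 10.2% and 9.7% of genes. Of 13 genes for subunits or the G1 activator of the anaphase-promoting complex, 2 were called higher and 1 lower at day 14 after bleomycin. At day 30, 1 was called higher, against 14.8% of all genes, and after pneumonectomy 4 were called lower, against 19.3%. Of 15 G1 cyclins, kinases and inhibitors, 10 were called higher and 2 lower at day 14. The shares of all genes at day 14, for both lists, were 33.4% higher and 29.9% lower. Ccnd1, cyclin D1, had 28.4 RPKM at day 14 against 1.13 in sham (4.30 ± 0.29) and 4.43 at day 30 (1.72 ± 0.26). Cdkn1a, which encodes the inhibitor p21, was at 46.4 RPKM at day 14 against 12.8 (1.61 ± 0.13), 20.3 at day 30 (0.55 ± 0.12) and 30.6 after pneumonectomy (1.48 ± 0.13). Cdkn2a, the locus of p16 and p19Arf, was at 1.98 RPKM at day 30 against 0.0482 (3.64 ± 0.37), with a day 30 against day 14 change of -0.20 ± 0.33 (adjusted p = 0.619), whereas all mitosis genes tested fell between those days.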

How the data were processed

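RNA-seq was made of 13 libraries. The deposited values are RPKM, which the authors computed for 43346 genes on mm10, per the submitters' processing notes and the file headers; the aligner, the counter and the annotation are not given in the sources used here. Columns of the 3 pneumonectomy libraries have no number and are named A, B and C. Library depth and the reads behind each member were read back from the steps between low values, with gene lengths from GENCODE M21. In 81.6% to 84.8% of low values per library, the result was whole within 0.05 reads. Reads of 21 members used the annotated length, and those of 16 the shortest length that gave whole reads.

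For tests, RPKM was divided by a trimmed-mean factor of each library (30% of ratios and 5% of levels trimmed), and log2(value + 0.1) was fitted with limma 3.58.1 in R 4.3.3 over all 4 groups, with a mean-variance trend and robust priors. Genes with at least 1 RPKM in 2 libraries entered (12938), p-values were adjusted by Benjamini-Hochberg over all of them, and calls were made at 0.05. The fit was tested on simulated data. Files were read and figures drawn with Python 3.11.15, pandas 2.3.3 and matplotlib 3.10.9. Alternatives were other pseudocounts, filters and scalings, only the compared groups, no trend and no robust prior, a replicate block and leaving out each library. The members and all gene lists were chosen with earlier results of these data known. All 37 members could be named; from each other list, up to 4 called genes with the smallest p in a comparison, and Cdkn1a, Ccnd1 and Rb1. Promoter windows came from RefSeq, on GRCm38.p6. Protein sequences were not used here.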

Additional observations from a re-analysis of the deposited data

Results flagged for a closer look

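In the day 30 bleomycin group, replicate 5 stood apart from the other 4 libraries for 3 members by Dixon's test: Ndc80 was at 0.292 RPKM there, Kif11 at 0.312 and Hmmr at 0.279. The gap to the next library was 0.8, 0.736 and 0.791 of the group's range, against a critical value of 0.71. The test was run on 38 values of this group, and chance alone passes about 1 in 20.

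The change of the mitosis genes from sham differed between day 14 and day 30 after bleomycin: the test of day 30 against day 14 called 35 members, all lower at day 30.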

How the results depend on the processing

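The 3 comparisons with the day 14 bleomycin group called 35 of 35 tested members (37 of 37 with the lower filter or none) in every alternative run, including each left-out library. The count of members higher than sham after pneumonectomy, 11, was 6 with a pseudocount of 1, 7 without scaling and 5 to 11 over the fits that leave out a library; without scaling the median of all genes shifts to -0.21. The count at day 30, 21, was 9 with a pseudocount of 1 and 9 to 22 over the fits that leave out a library. With a replicate block it was 0 (14 at an unadjusted p under 0.05), where 2.13% of all genes were called higher; the counts of day 14 against sham and of day 30 against day 14 stayed at 35. No block was fitted for comparisons with pneumonectomy, whose libraries carry no replicate number. Shares of all genes called with a pseudocount of 1, without scaling and without single libraries are not given here. Deviations of same-numbered libraries from their group means correlated at -0.13 to 0.14. Differently numbered libraries were not correlated for reference, and the deviations of the 2 sham libraries mirror each other. These values therefore cannot decide whether replicate numbers pair the samples. The mean level over the 37 genes relative to sham moved from 3.31 to 3.53 without scaling and 1.59 with a pseudocount of 1 at day 14, from 0.66 to 0.19 with a pseudocount of 1 at day 30, and from 0.46 to 0.31 and 0.13 after pneumonectomy. Uncalled changes after pneumonectomy turned sign for Aurka (-0.090 without scaling, -0.036 with upper-quartile scaling, -0.18 to 0.22 over left-out libraries), Kif20a (-0.033 without scaling), Ect2 (-0.12 without scaling, -0.073 with upper-quartile scaling, -0.0026 with only the compared groups, -0.076 to 0.037 over left-out libraries) and, over left-out libraries, for Aurkb (-0.12 to 0.35), Hmmr (-0.20 to 0.59) and Mad2l1 (-0.19 to 0.024). At day 30 that of Ube2c did (0.039 without scaling, -0.26 to 0.17 over left-out libraries). The cause of these shifts was not tested. A pseudocount of 1 exceeds every sham level of the members, and sham levels rest on as few as 5 reads, which limits the precision of changes from sham.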
